A study of Mus musculus with 21 samples.

Results

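The NRF2 and antioxidant response genes described here are 10 genes chosen by symbol in the probe annotation: Nfe2l2, Keap1, Srxn1, Txnrd1, Txn1, Gclc, Gclm, Hmox1, Nqo1 and Osgin1. They are 10 of the 19057 genes named on the beadchip and 10 of the 11442 genes that were tested, since all of them passed the detection filter. Of their 20 probes among 45281 on the array, 16 passed that filter, and Keap1 (5 probes) and Srxn1 (3 probes) were read by more than 1 of these. Liver RNA came from female CD-1 mice of 3 months, with 1 Illumina array per mouse and 3 mice per group. The groups were livers taken 1, 3 and 6 h after partial hepatectomy (PH, surgical removal of 70% of the liver mass), livers taken 1, 3 and 6 h after a single gavage of TCPOBOP (TCP) at 3 mg/kg in dimethyl sulphoxide and corn oil, and livers of untreated mice (control). TCP is an agonist of the constitutive androstane receptor and makes hepatocytes divide without loss of tissue. No sham-operated group, no group given the oil alone and no controls at 1, 3 or 6 h were analysed here, so surgery, anaesthesia, gavage and the time of day cannot be told apart from PH or TCP.

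NRF2, encoded by Nfe2l2, is a transcription factor that is normally bound by KEAP1 and passed to a ubiquitin ligase for destruction. When oxidants or electrophiles modify cysteines of KEAP1, NRF2 escapes, pairs with a small MAF protein and binds antioxidant response elements in DNA, so its activity is set largely at the protein level. Its known targets make glutathione (Gclc, Gclm), run the thioredoxin cycle (Txn1, Txnrd1, Srxn1), break down haem (Hmox1) and reduce quinones (Nqo1), and in liver they protect hepatocytes against drugs and oxidants.

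RefSeq promoter windows on GRCm38.p6, from 250 bases before to 50 bases after a transcription start, were matched for 8 of the 10 members (all but Gclc and Hmox1), which gave 10 windows. They were searched on both strands for the core of the antioxidant response element, TGACNNNGC, for the AP-1 element TGANTCA, and for the MAF site TGCTGAC. The antioxidant response element core was present in 4 of the 10 windows (those of Nfe2l2, Srxn1 and Gclm and 1 of the 3 of Txnrd1) and in 12.4% of all 32851 windows of the table. The AP-1 element was present in 2 (Srxn1, with 2 matches, and Osgin1) and in 7.81% of all windows, and the MAF site in 1, that of Osgin1, where it overlaps the AP-1 match, and in 4.67% of all windows. These are matches of letters, and binding was not measured. The windows of Srxn1, which had the largest rise of the members, of Txnrd1, whose rise was the most stable, and of Osgin1, which also holds an AP-1 match but was not called in any comparison, are printed 5′ to 3′ on the strand of the gene, with the matches to the antioxidant response element core and the AP-1 element in capitals.
Srxn1, chr2:152105274-152105573, plus strand, with AP-1 matches from positions 149 and 206 of the window and an antioxidant response element core, read on the opposite strand, from position 279: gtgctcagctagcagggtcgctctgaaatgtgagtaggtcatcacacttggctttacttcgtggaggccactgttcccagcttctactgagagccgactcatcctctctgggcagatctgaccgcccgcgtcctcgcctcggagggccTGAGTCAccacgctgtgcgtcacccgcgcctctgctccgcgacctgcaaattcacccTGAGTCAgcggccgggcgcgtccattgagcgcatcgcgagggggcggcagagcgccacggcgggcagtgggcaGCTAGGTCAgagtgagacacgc
Txnrd1, chr10:82858956-82859255, plus strand, with an antioxidant response element core, read on the opposite strand, from position 159: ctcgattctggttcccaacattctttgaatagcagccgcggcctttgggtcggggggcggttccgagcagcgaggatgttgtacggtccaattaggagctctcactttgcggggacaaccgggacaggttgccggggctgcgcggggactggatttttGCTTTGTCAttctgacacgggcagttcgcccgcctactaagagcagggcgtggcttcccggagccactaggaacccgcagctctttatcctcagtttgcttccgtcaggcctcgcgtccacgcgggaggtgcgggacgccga
Osgin1, chr8:119436897-119437196, plus strand, with an AP-1 match from position 154: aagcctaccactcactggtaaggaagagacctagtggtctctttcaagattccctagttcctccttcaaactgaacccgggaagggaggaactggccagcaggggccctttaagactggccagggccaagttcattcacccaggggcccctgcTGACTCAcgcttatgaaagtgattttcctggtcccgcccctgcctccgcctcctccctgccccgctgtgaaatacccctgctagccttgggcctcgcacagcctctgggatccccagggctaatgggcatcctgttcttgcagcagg

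The quality of the arrays and their layout bear on all values that follow. Between 15982 and 17973 probes were detected per array, and arrays of 1 group correlated with each other at 0.9628 to 0.993 over the tested genes. All 7 hepatocyte markers were tested, at summed signals of 113000 to 148000 on the 21 arrays. Cyp2b10, the marker target of the constitutive androstane receptor, rose after TCP by a log2 fold change of 2.38 at 3 h (SE 0.25, limma adjusted p = 0.000136) and 2.98 at 6 h (SE 0.25, limma adjusted p = 1.78e-06). Cdkn1a, an inhibitor of the cell cycle, rose after PH, by 5.03 (3 h, SE 0.74, limma adjusted p = 0.000399) and by 5.44 (6 h, SE 0.74, limma adjusted p = 8.72e-05). Its changes after TCP were 2.75 at 1 h (limma adjusted p = 0.187), 2.77 at 3 h (limma adjusted p = 0.0772) and -0.52 at 6 h (limma adjusted p = 0.769). None of these was called, but every TCP liver at 1 and 3 h was above all controls, so Cdkn1a does not mark PH alone. The arrays lay on 4 beadchips. Control replicate 2, all PH 1 h arrays and PH 3 h replicates 1 and 2 shared beadchip 3, and control replicate 3, PH 3 h replicate 3 and all PH 6 h arrays shared beadchip 4. Control replicate 1 lay on beadchip 1 with TCP 3 h replicate 1 and all TCP 6 h arrays, and TCP 1 h replicate 3 lay on beadchip 4. Beadchip 2 held TCP 1 h replicates 1 and 2 and TCP 3 h replicates 2 and 3, and no control. PH and TCP arrays of the same time point never shared a beadchip.

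The first question was which of the 10 genes responded to PH or to TCP within 6 h. A gene was called, and only then said to rise or fall, when its p, adjusted by Benjamini-Hochberg in a limma model of all 7 groups, was below 0.05 and it differed 1.5-fold or more. No member was called 1 h after PH, where 0.402% of all tested genes were called and no member had an unadjusted p under 0.05. Srxn1 and Hmox1 rose 3 h after PH, which is 2 of 10 members against 7.43% of all tested genes. Srxn1, Hmox1 and Txnrd1 rose 6 h after PH, which is 3 of 10 members against 20.8% of all tested genes. After TCP no member was called at 1, 3 or 6 h, with 1, 0 and 2 members at an unadjusted p under 0.05, while 0.184%, 1.22% and 5.31% of all tested genes were called. The moderated F test across the times called the same 3 members after PH (21.2% of all genes) and none after TCP (5.21% of all genes, 1 member at an unadjusted p under 0.05). No member was called lower in any comparison. The median log2 change of the 10 members was -0.22, 0.02 and -0.20 at 1 h, 3 h and 6 h post-PH, beside 0, -0.05 and -0.08 over all tested genes, and -0.10, -0.23 and -0.09 at these times after TCP, beside -0.01, -0.02 and -0.02. The called changes were thus those of 3 members, all after PH, and the plot of changes by member sets them beside the other 7.

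**Figure D1:**
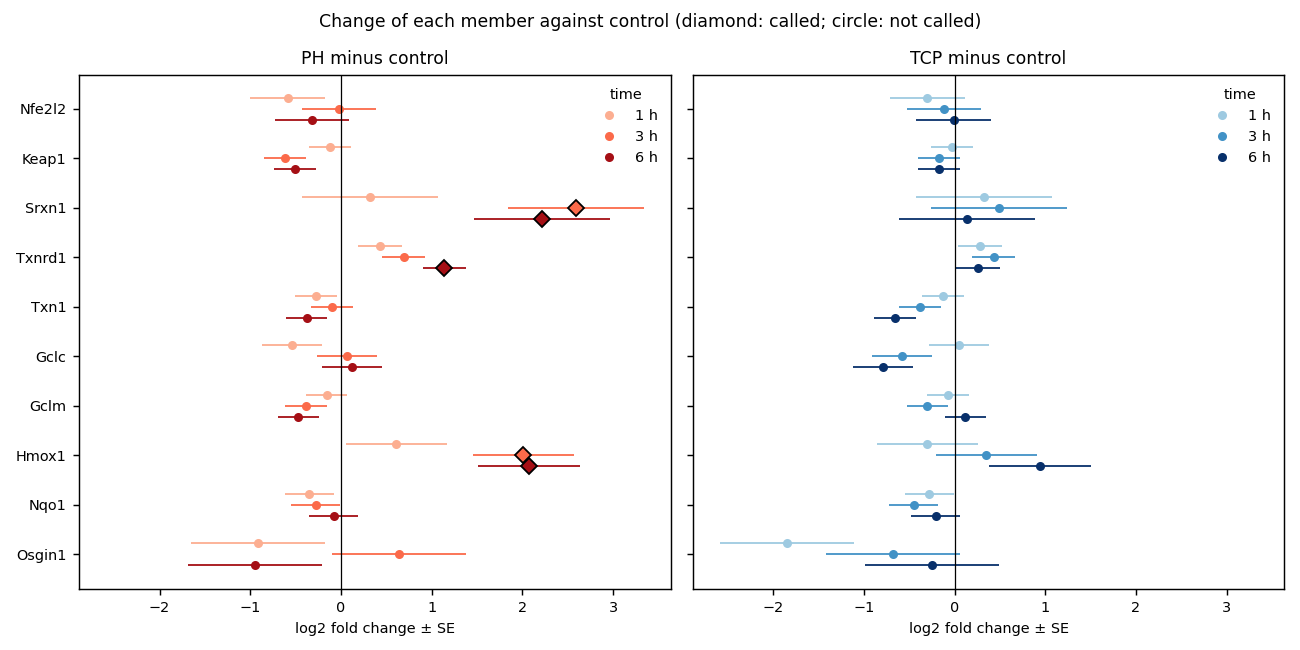
Log2 fold change of each of the 10 members against control (x axis, ± SE) after PH (left) and after TCP (right), with 1 colour per time, with called changes as diamonds. The 5 diamonds are those of Srxn1 and Hmox1 at 3 and 6 h and of Txnrd1 at 6 h after PH, and the TCP side has none.

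Srxn1 encodes sulfiredoxin, which restores overoxidised peroxiredoxins. Its normalised log2 signal was 9.49, 9.43 and 8.85 in control livers, 9.57, 9.49 and 9.68 at 1 h, 12.54, 9.81 and 13.19 at 3 h, then 12.71, 12.61 and 9.11 at 6 h after PH. Thus 4 of the 6 livers at 3 and 6 h stood more than 2 log2 units above all other arrays, whereas PH 3 h replicate 2 lay only just above the controls and PH 6 h replicate 3 lay within them. After TCP the signal was 9.79, 9.50 and 9.45 at 1 h, 9.59, 9.92 and 9.74 at 3 h, then 9.94, 9.14 and 9.12 at 6 h, so no TCP liver reached 10. The rise was 2.59 at 3 h (SE 0.75, limma adjusted p = 0.041), or 6.02-fold with a 95% confidence interval of 2.02 to 17.9, and 2.22 at 6 h (SE 0.75, limma adjusted p = 0.0392), or 4.66-fold (1.57 to 13.9).

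The spread between mice limits the Srxn1 calls. Without PH 3 h replicate 2 the 3 h change was 3.61, and the call was lost without any other array of that comparison, namely any 1 of the controls, PH 3 h replicate 1 or PH 3 h replicate 3, at 1.92 to 2.71. Without PH 6 h replicate 3 the 6 h change was 3.40, and the call was lost without any 1 of the controls, PH 6 h replicate 1 or PH 6 h replicate 2, at 1.60 to 2.34. With the beadchip as a block the changes were 2.86 (adjusted p = 0.0786) and 1.90 (adjusted p = 0.218), and with a variance prior that follows the signal and is robust they were unchanged in size with adjusted p = 0.0848 and 0.0741. Within a beadchip the 3 h change was 1.75 on beadchip 3 and 4.34 on beadchip 4, and the 6 h change was 2.63 on beadchip 4. On the authors' processed values the changes were 2.31 (adjusted p = 0.0743) and 2.00 (adjusted p = 0.0638). PH 3 h replicate 1 at 12.54 and replicate 2 at 9.81 lay on the same beadchip.

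All 3 Srxn1 probes were called at both times in a fit of single probes, with changes of 2.59, 2.37 and 2.68 at 3 h, then 2.22, 2.87 and 2.97 at 6 h, in falling order of brightness. On every probe PH 3 h replicates 1 and 3 and PH 6 h replicates 1 and 2 were the 4 highest arrays. The dim pair of probes placed PH 6 h replicate 3 at 7.57 and 7.12, above their highest control array at 6.40 and 6.09, while the brightest probe gave 9.11 there, under its highest control array at 9.49. PH 6 h replicate 3 was thus above the controls on the dim pair of probes and within them on the bright one, each probe being compared only with itself.

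**Figure D2:**
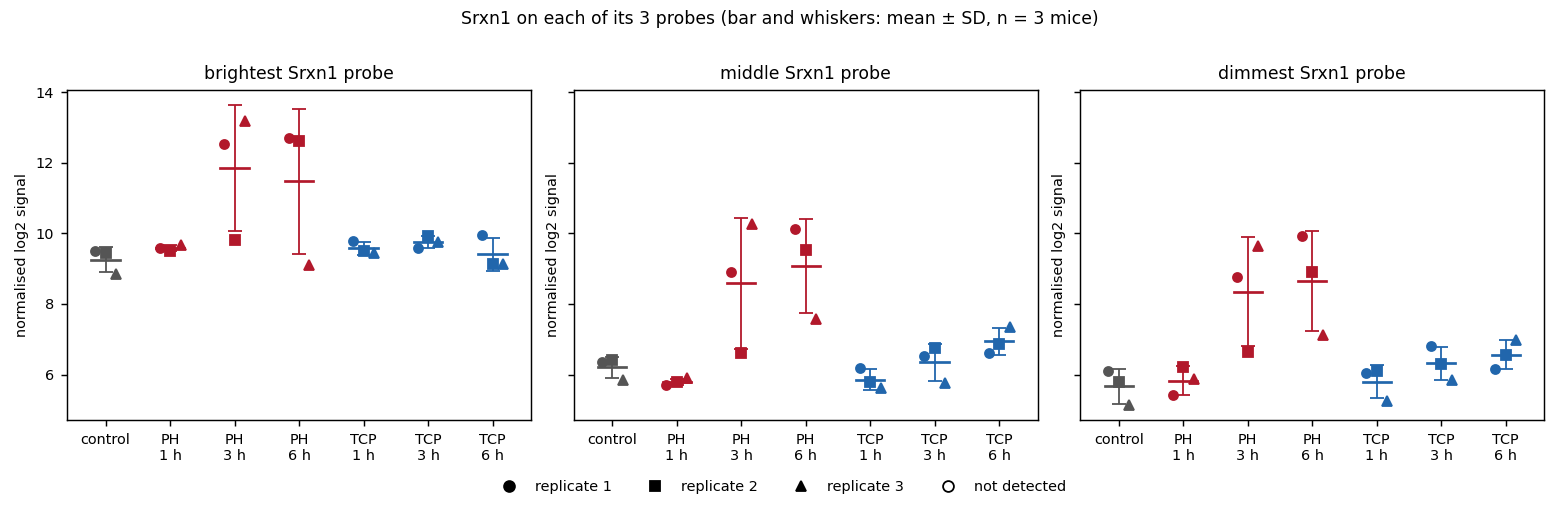
Normalised log2 signal (y axis) of each of the 3 Srxn1 probes by group (x axis), with 1 symbol per mouse and bars and whiskers for the mean ± SD of 3 mice. The same 4 arrays, PH 3 h replicates 1 and 3 and PH 6 h replicates 1 and 2, stand highest in each panel.

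Other values of those arrays were as follows. Cdkn1a stood at 12.07, 10.66 and 11.72 at 3 h, then 12.43, 11.06 and 12.18 at 6 h after PH, against 6.34, 6.15 and 6.86 in control livers. The livers with low Srxn1 thus had high Cdkn1a too, although PH 3 h replicate 2 had the lowest value at 3 h. Over all tested genes, 1279 were called at 3 h after PH without PH 3 h replicate 2, against 850 with it. At 6 h, 2169 were called without PH 6 h replicate 3, against 2379 with it. Of 7 neutrophil markers 5 were tested (Ly6g and Ngp were not), and 3 of them rose at 3 h and at 6 h, with summed signals of 1140 to 2480 and 507 to 904, against 119 to 153 in control livers. The sums in the PH livers with low Srxn1, 1900 at 3 h and 860 at 6 h, were above the control range. At 1 h after PH 2 of these markers rose, with sums of 285 to 2080. Of 5 cholangiocyte markers only Krt7 and Sox9 were tested, not Krt19, Epcam and Spp1, and the summed signal of this pair was 6420, 772 and 6530 at 3 h and 1640, 1020 and 465 at 6 h after PH, against 285 to 378 in control livers. This sum was lowest in the liver with low Srxn1 at each time. It was mostly Sox9, with log2 signals of 12.64, 9.52 and 12.66 at 3 h and 10.65, 9.92 and 8.77 at 6 h. In control livers Sox9 was at 8.40, 8.17 and 7.98. Krt7 was at 5.46, 5.27 and 5.18 at 3 h and 5.29, 5.60 and 4.82 at 6 h, against 5.34, 5.26 and 5.0 in control livers. The sum therefore describes Sox9 and not the pair. Of 8 macrophage markers 6 were tested (Cd5l and Cd68 were not). None was called against control at 1, 3 or 6 h after PH, while the F test across the times called 1. Their sums after PH were 1410 to 3810 at 1 h, 1280 to 1920 at 3 h and 778 to 1350 at 6 h, against 1230 to 1640 in control livers. Of 6 endothelial markers, all tested, 1 rose at 3 h and 2 at 6 h after PH, with sums of 4410 to 5120 and 2930 to 6820, against 5140 to 5940 in control livers. Of 6 stellate cell markers, all tested, 2 rose and 1 fell at 6 h after PH, with sums of 9870 to 17700, against 8810 to 11400 in control livers. Of 6 red blood cell markers 4 were tested, and 1 fell at 3 h and 1 at 6 h after PH and 3 fell at 3 h after TCP, with sums of 18300 to 27800, 11600 to 29900 and 7790 to 11500, against 23900 to 42200 in control livers. No hepatocyte marker was called against control. The part of other cell types in the results was not tested, and in whole liver fewer cells of a type and less RNA per cell cannot be told apart.

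Hmox1 encodes haem oxygenase 1, which splits haem into biliverdin, iron and carbon monoxide and is induced both through NRF2 and on loss of the repressor BACH1. Its log2 signal was 5.21, 4.97 and 5.36 in control livers, 6.81, 5.84 and 4.71 at 1 h, 7.84, 6.38 and 7.36 at 3 h, then 7.51, 8.54 and 5.72 at 6 h after PH. Every PH liver at 3 and 6 h was above all controls, and the lowest at each time was again PH 3 h replicate 2 and PH 6 h replicate 3. The gene was dim and was detected on 16 of the 21 arrays, the exceptions being control replicate 2, PH 1 h replicate 3, TCP 1 h replicates 1 and 2 and TCP 3 h replicate 2.

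The rise of Hmox1 was 2.01 at 3 h (SE 0.56, limma adjusted p = 0.0324), or 4.04-fold (95% confidence interval 1.80 to 9.04), and 2.07 at 6 h (SE 0.56, limma adjusted p = 0.0115), or 4.21-fold (1.88 to 9.42). The 3 h call was lost without any array of the comparison but PH 3 h replicate 2, at 1.69 to 2.11, and the 6 h call without PH 6 h replicate 2, at 1.43, while without PH 6 h replicate 3 it was 2.84 (adjusted p = 0.000975). The size of the fold depends on how background is handled: with a background offset of 50 the changes were 1.38 (adjusted p = 0.0459) and 1.48 (adjusted p = 0.0137), and on the authors' processed values 0.44 (adjusted p = 0.131) and 0.53 (adjusted p = 0.0298), so neither was called on the authors' scale. With the beadchip as a block the changes were 2.10 (adjusted p = 0.0812) and 1.97 (adjusted p = 0.0843), and within a beadchip 2.14 and 2.00 at 3 h and 1.89 at 6 h. After TCP the log2 signal was 4.96, 4.48 and 5.22 at 1 h, 5.96, 5.01 and 5.63 at 3 h, then 6.50, 5.88 and 5.99 at 6 h. The 3 TCP livers at 6 h were all above the controls, and the change of 0.94 (SE 0.56) was not called (limma adjusted p = 0.368, 95% confidence interval -0.22 to 2.11 on the log2 scale). In a fit of the TCP 6 h and control arrays alone, which has fewer arrays to set the spread, this change was called.

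Txnrd1 encodes cytosolic thioredoxin reductase, which uses NADPH to keep thioredoxin reduced. Its log2 signal was 6.38, 6.38 and 6.03 in control livers, 6.65, 6.72 and 6.71 at 1 h, 6.84, 6.87 and 7.16 at 3 h, then 7.79, 7.27 and 7.14 at 6 h after PH. All 9 PH livers were above all 3 controls. The change was 0.43 at 1 h (SE 0.24, limma adjusted p = 0.558), 0.69 at 3 h (SE 0.24, limma adjusted p = 0.0841) and 1.14 at 6 h (SE 0.24, limma adjusted p = 0.0021), and only the last, a rise of 2.20-fold (95% confidence interval 1.56 to 3.09), was called. That call was kept without any 1 array, at 0.94 to 1.26, and with the beadchip as a block, at 1.11 (adjusted p = 0.0297), and the change within beadchip 4 was 1.37. On the authors' processed values it was 0.32 (adjusted p = 0.00255), under the 1.5-fold limit. After TCP the log2 signal was 7.01, 6.11 and 6.52 at 1 h, 6.46, 6.85 and 6.78 at 3 h, then 6.53, 6.12 and 6.91 at 6 h, and the changes of 0.28, 0.43 and 0.26 were not called. The difference between PH and TCP at 6 h was itself called, at 0.88 (SE 0.24, limma adjusted p = 0.02).

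**Figure D3:**
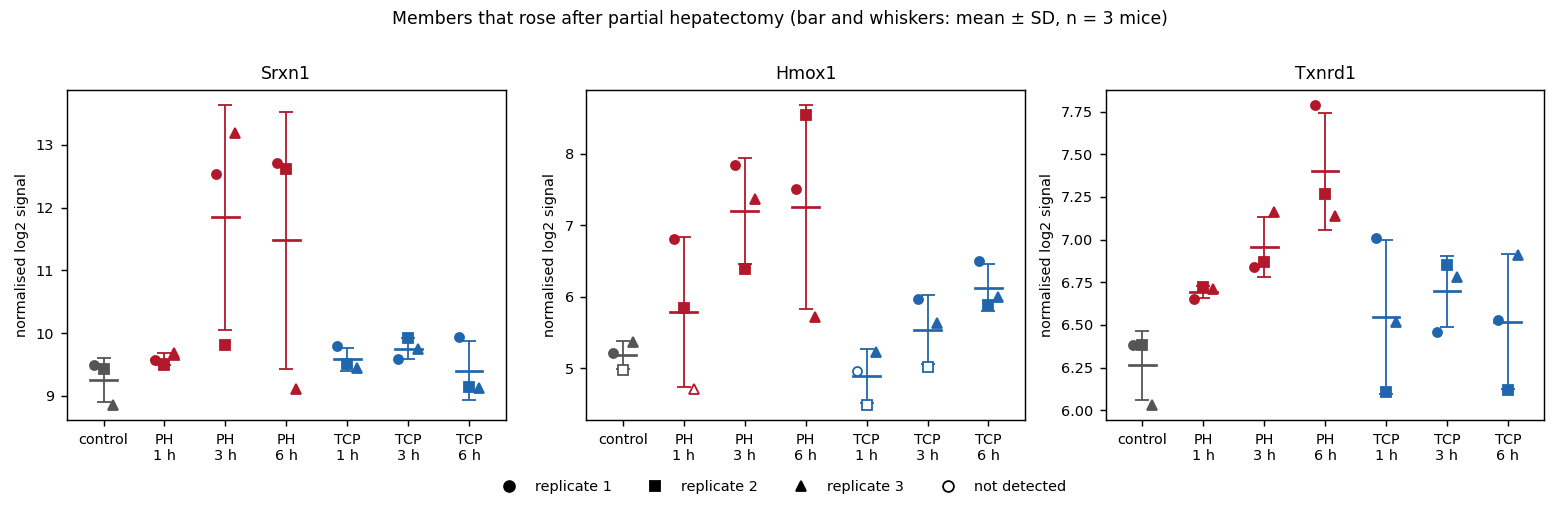
Normalised log2 signal (y axis, 1 scale per panel) of Srxn1, Hmox1 and Txnrd1 by group (x axis), with 1 symbol per mouse, open where the probe was not detected, and bars and whiskers for the mean ± SD of 3 mice. PH livers at 6 h reach 12.71 for Srxn1, 8.54 for Hmox1 and 7.79 for Txnrd1, and the TCP livers stay at or under 9.94, 6.50 and 7.01.

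Txn1 encodes thioredoxin, the substrate of that reductase, and did not follow it. Its log2 signal was 9.45, 9.45 and 9.35 in control livers, 9.51, 9.0 and 8.91 at 1 h, 9.25, 9.34 and 9.37 at 3 h, then 8.97, 9.24 and 8.90 at 6 h after PH, and 9.32, 9.17 and 9.36 at 1 h, 8.43, 9.03 and 9.65 at 3 h, then 8.83, 8.50 and 8.96 at 6 h after TCP. All 3 livers at 6 h of either treatment were below the controls. The changes there, of -0.38 after PH (SE 0.23, limma adjusted p = 0.26) and -0.66 after TCP (SE 0.23, limma adjusted p = 0.104), were not called. In a fit of the TCP and control arrays alone, which has fewer arrays to set the spread, the TCP change was called (adjusted p = 0.0293).

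The regulators themselves were not called on the brightest probe. Nfe2l2 was at 7.15, 6.87 and 7.03 in control livers, 7.12, 6.32 and 5.83 at 1 h, 6.32, 7.37 and 7.30 at 3 h, then 6.74, 7.45 and 5.88 at 6 h after PH. It was at 6.65, 6.52 and 6.97 at 1 h, 7.40, 5.96 and 7.32 at 3 h, then 7.11, 7.21 and 6.68 at 6 h after TCP. The groups overlapped at every time, and the changes of -0.59, -0.02 and -0.32 after PH had 95% confidence intervals of -1.45 to 0.27, -0.87 to 0.84 and -1.18 to 0.54.

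Keap1, the inhibitor of NRF2, was at 9.45, 9.48 and 9.22 in control livers, 9.53, 9.03 and 9.23 at 1 h, 8.60, 9.32 and 8.34 at 3 h, then 8.62, 9.05 and 8.94 at 6 h after PH. All 3 PH livers at 6 h and 2 of the 3 at 3 h were below the controls, the exception being PH 3 h replicate 2, the liver with low Srxn1 at that time. The changes of -0.62 at 3 h (SE 0.23, limma adjusted p = 0.113) and -0.51 at 6 h (SE 0.23, limma adjusted p = 0.122) were not called. Without PH 3 h replicate 2 the 3 h change was -0.91 and was called (adjusted p = 0.00973). In the fit of single probes 4 of the 5 Keap1 probes had 3 h changes of -0.62 to -0.81, and the probe at -0.81 was called (adjusted p = 0.0136), while the fifth, not detected on 15 arrays, had a change of -0.04. On the mean of the 5 probes the 3 h change was -0.58 (SE 0.17, limma adjusted p = 0.0421), which passed the p threshold but fell just short of 1.5-fold. After TCP Keap1 was at 9.60, 9.35 and 9.10 at 1 h, 9.30, 9.41 and 8.94 at 3 h, then 9.21, 8.98 and 9.44 at 6 h, and its changes of -0.03, -0.17 and -0.17 were not called.

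Gclc and Gclm encode the catalytic and the modifier subunit of glutamate-cysteine ligase, which makes the first step of glutathione synthesis. Gclc was at 7.07, 7.09 and 6.86 in control livers, 6.47, 6.76 and 6.18 at 1 h, 6.64, 7.21 and 7.38 at 3 h, then 7.24, 8.08 and 6.05 at 6 h after PH. The 3 livers at 6 h after PH ran from the highest to the lowest Gclc signal of all 21 arrays, with PH 6 h replicate 3 again the low one, and the change of 0.12 (SE 0.33) was not called (limma adjusted p = 0.841). After TCP Gclc was at 7.15, 7.13 and 6.91 at 1 h, 6.58, 6.52 and 6.18 at 3 h, then 6.11, 6.15 and 6.38 at 6 h. All 6 TCP livers at 3 and 6 h were below all controls, with changes of -0.58 (SE 0.33, limma adjusted p = 0.478) and -0.79 (SE 0.33, limma adjusted p = 0.174) that were not called. In a fit of the TCP and control arrays alone the 6 h change was called (adjusted p = 0.0118).

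Gclm was at 11.01, 11.25 and 11.55 in control livers, 11.05, 11.08 and 11.20 at 1 h, 10.96, 11.01 and 10.68 at 3 h, then 11.26, 11.09 and 10.07 at 6 h after PH. After TCP it was at 10.99, 11.30 and 11.30 at 1 h, 11.18, 10.79 and 10.94 at 3 h, then 11.33, 11.41 and 11.43 at 6 h. No change was called, the largest being -0.47 at 6 h after PH (SE 0.23, limma adjusted p = 0.166), and that value was -0.10 without PH 6 h replicate 3.

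Nqo1 encodes a quinone reductase widely used as a marker of NRF2 activity. Its log2 signal was 6.65, 6.83 and 6.07 in control livers, 6.51, 6.34 and 5.65 at 1 h, 6.29, 6.04 and 6.37 at 3 h, then 7.08, 6.07 and 6.15 at 6 h after PH, and 6.40, 5.95 and 6.35 at 1 h, 5.97, 6.13 and 6.11 at 3 h, then 6.48, 5.98 and 6.45 at 6 h after TCP. The groups overlapped in all 6 comparisons, and no change was called. The changes of -0.28 at 3 h and -0.08 at 6 h after PH had 95% confidence intervals of -0.85 to 0.28 and -0.65 to 0.48. On this scale these leave out a rise as large as those of Srxn1 and Hmox1. The probe was dim, at 5.65 to 7.08 over the 21 arrays, and the size of its changes rests on how background is handled. A second Nqo1 probe was not detected on any array.

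Osgin1 encodes an oxidative stress induced growth inhibitor and varied widely within groups. It was at 11.35, 11.43 and 11.53 in control livers, 11.51, 9.93 and 10.10 at 1 h, 12.41, 11.82 and 12.01 at 3 h, then 11.80, 10.97 and 8.69 at 6 h after PH. After TCP it was at 9.17, 10.82 and 8.77 at 1 h, 11.54, 8.87 and 11.84 at 3 h, then 10.79, 11.03 and 11.73 at 6 h. The controls lay within 0.2 of each other, the 3 livers at 3 h after PH were all above them and the 3 at 1 h after TCP all below them. Neither the change of 0.64 at 3 h after PH (SE 0.74, limma adjusted p = 0.703) nor that of -1.85 at 1 h after TCP (SE 0.74, limma adjusted p = 0.478) was called.

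**Figure D4:**
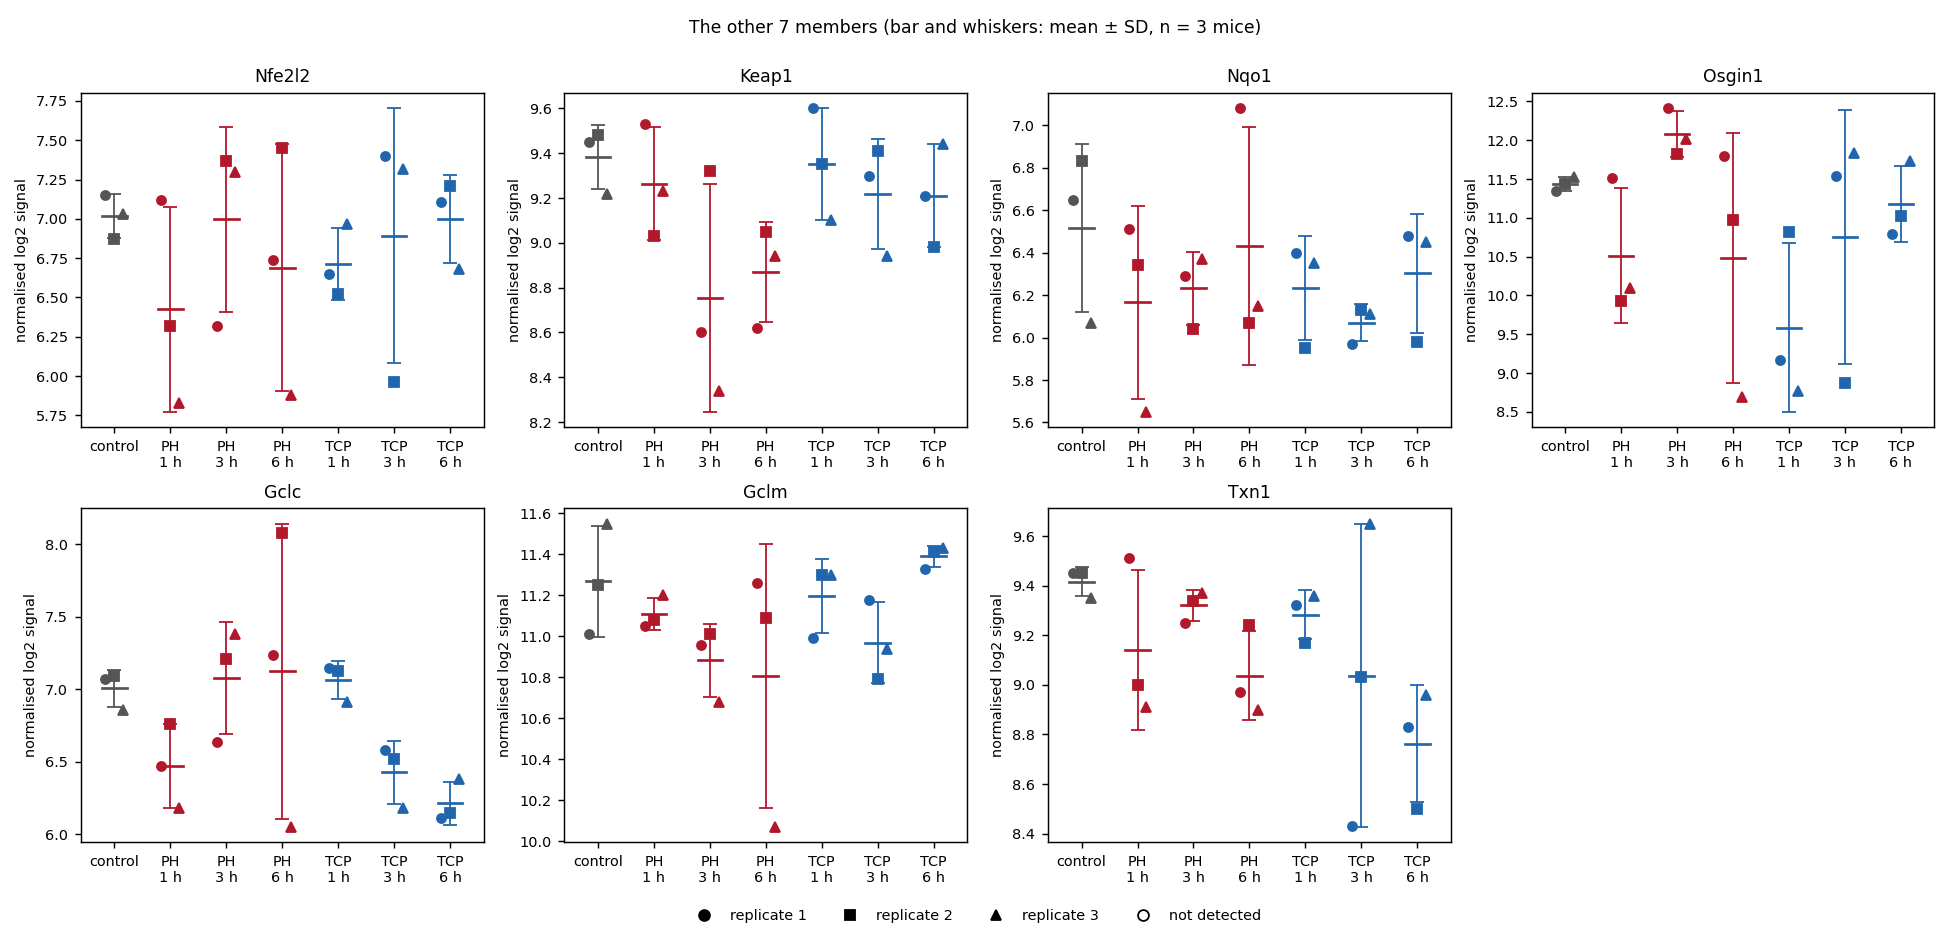
Normalised log2 signal (y axis, 1 scale per panel) of the 7 members that were not called against control, by group (x axis), with 1 symbol per mouse and bars and whiskers for the mean ± SD of 3 mice. Gclc is below the controls in all 6 TCP livers at 3 and 6 h and in all 3 PH livers at 1 h, and Osgin1 spans 8.69 to 12.41 over the 21 arrays.

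The second question was whether the members differed between PH and TCP. At 1 h none was called and none had an unadjusted p under 0.05 (0.271% of all genes called), at 3 h none was called and 2 had an unadjusted p under 0.05 (4.36% of all genes called), and at 6 h Txnrd1 was called as higher after PH (10.3% of all genes called) and 4 had an unadjusted p under 0.05. Srxn1 was higher after PH by 2.10 at 3 h (SE 0.75, limma adjusted p = 0.127) and 2.08 at 6 h (SE 0.75, limma adjusted p = 0.0838), and Hmox1 by 1.66 at 3 h (SE 0.56, limma adjusted p = 0.10) and 1.13 at 6 h (SE 0.56, limma adjusted p = 0.215). On the brightest probe of each gene none of these 4 differences was called. That of Srxn1 at 6 h lay at the threshold: it was called on the other 2 Srxn1 probes (2.07, adjusted p = 0.0413, and 2.14, adjusted p = 0.0418), on the mean of the probes (2.10, adjusted p = 0.0463) and with the methods' filter (2.08, adjusted p = 0.04). In the fit of single probes 2 Keap1 probes were called lower after PH at 3 h (-0.91, limma adjusted p = 0.0218, and -0.81, limma adjusted p = 0.0196). The brightest Keap1 probe, at -0.46, and those at -0.49 and 0.20 were not called. The Txnrd1 difference was lost without PH 6 h replicate 1 (0.68), TCP 6 h replicate 1 (0.88) or TCP 6 h replicate 2 (0.68), and with the beadchip as a block it was 0.87 (adjusted p = 0.526). Without PH 3 h replicate 2, the differences at 3 h of Srxn1 (3.11), Hmox1 (2.07) and Keap1 (-0.74) were called. Without PH 6 h replicate 3, those at 6 h of Srxn1 (3.26), Hmox1 (1.90) and Gclc (1.45) were called, and without PH 6 h replicate 1, that of Gclm (-0.81). Controls are shared by the comparisons against control, and the differences between PH and TCP do not use them.

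Over the 21 arrays the members did not move as 1 group. The highest correlation between members was that of Srxn1 and Hmox1 (r = 0.80), followed by Srxn1 and Txnrd1 (r = 0.67), and the lowest were those of Keap1 with Srxn1 (r = -0.72) and with Hmox1 (r = -0.59). These arrays share groups and beadchips, so the values describe the arrays and were not tested. The genes most like Srxn1 were Ppl (r = 0.94), which encodes periplakin, Acot5 (r = 0.93), which encodes an acyl-CoA thioesterase of peroxisomes, and Map2k3 (r = 0.92), which encodes a kinase of the p38 pathway. Those most like Hmox1 were Vim (r = 0.88), which encodes vimentin, Anxa2 (r = 0.86), which encodes annexin A2, and Ch25h (r = 0.86), which encodes cholesterol 25-hydroxylase. The genes most like Gclc were Nt5c3 (0.83), Itga3 (0.80) and Sgms2 (0.78), those most like Nfe2l2 were Hao2 (0.78), Rdh7 (0.76) and Sult2a8 (0.76), and those most like Nqo1 were Ly6f (0.75), Fam171a1 (0.73) and Fem1a (0.69), each as r over 21 arrays.

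The other genes of the pathway were taken from 7 lists of 83 genes, of which 74 were tested. After PH none was called at 1 h, 2 rose and 1 fell at 3 h, and 2 rose and 5 fell at 6 h, which is 4.05% and 9.46% of the 74 at the later times, below the share of all tested genes. After TCP none was called at 1 h, 1 rose at 3 h, and 3 rose and 4 fell at 6 h, which is 1.35% and 9.46% at the later times, beside 1.22% and 5.31% of all tested genes. The list of NRF2 regulators and partners, with 14 of 16 genes tested, held all 3 calls at 3 h after PH, and the list of superoxide and peroxide enzymes, with 4 of 4 tested, held no call against control. The detoxification genes, with 24 of 25 tested, had no call at 3 h after either treatment, 1 that fell at 6 h after PH, and 1 that rose and 1 that fell at 6 h after TCP.

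Among the partners of NRF2, Maff and Mafk rose 3 h after PH, whereas the third small MAF gene, Mafg, averaged 10.17 there and 10.20 in control livers and was not called. Maff was at 8.37, 7.32 and 9.13 at 3 h after PH, against 4.92, 5.02 and 4.58 in control livers, where it was detected on 1 of 3 arrays, so the size of its change rests on control values near background. Its rise of 3.44 (SE 0.64, limma adjusted p = 0.00249) was kept without any 1 array and with the beadchip as a block (3.50, adjusted p = 0.0146), and within a beadchip it was 2.83 and 4.55. Mafk was at 6.04, 5.37 and 6.10 at 3 h after PH, against 4.79, 4.79 and 4.86 in control livers, where it was not detected. Measured against the lowest detected signal of the control arrays it rose at least 1.71-fold, a bound that was not itself tested. The call (limma adjusted p = 0.0153) is that of the change fitted on the undetected control values. That call was kept with the beadchip as a block (adjusted p = 0.0465). It was lost when control replicate 1, control replicate 2, PH 3 h replicate 1 or PH 3 h replicate 3 was left out (log2 changes of 0.89 to 1.25 over the 6 fits). PH 3 h replicate 2 had the lowest value of the 3 PH livers for both genes, yet lay above all controls.

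At 6 h after PH the clearest fall of the pathway lists was that of Slc40a1, which encodes the iron exporter ferroportin. It was at 11.81, 12.04 and 11.23 at 6 h after PH, against 13.42, 13.20 and 13.28 in control livers, a change of -1.61 (SE 0.22, limma adjusted p = 8.2e-05) that was kept without any 1 array, with the beadchip as a block (-1.49, adjusted p = 0.00522) and within beadchip 4 (-1.59). Glrx, which encodes a glutaredoxin, rose by 0.77 (SE 0.21, limma adjusted p = 0.0135), a call lost without PH 6 h replicate 3 (0.56). Btrc, which encodes an adaptor of a ubiquitin ligase that can also mark NRF2, had a change of -0.87 (SE 0.21, limma adjusted p = 0.00602), and was lower too at 6 h after TCP, at -1.14 (SE 0.21, limma adjusted p = 0.0043), both kept without any 1 array.

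Further calls after PH were lost in fits that left out 1 array. Trim21, which encodes a ubiquitin ligase, fell at 3 h (-0.89, limma adjusted p = 0.0386) and 6 h (-0.79, limma adjusted p = 0.0309), and Sesn1, which encodes a sestrin, fell at 6 h (-1.13, limma adjusted p = 0.0368). Neither low level was particular to PH. At 6 h after TCP Trim21 averaged 6.58, against 7.16 in control livers, and Sesn1 8.67, against 9.69. Every TCP liver at 6 h was below all controls for both genes, though neither was called. Syvn1, which encodes the HRD1 ubiquitin ligase, rose at 6 h (0.83, limma adjusted p = 0.0441), and Abcc3, an exporter of conjugates, fell (-0.62, limma adjusted p = 0.0308). The Trim21 calls were lost without any array of their comparison but PH 3 h replicate 2 and PH 6 h replicate 3 (-0.94 to -0.79 and -0.83 to -0.70), the Sesn1 call without any but PH 6 h replicate 2 (-1.60 to -0.84), the Syvn1 call without PH 6 h replicates 2 or 3 or controls 1 or 2 (0.53 to 1.08), and the Abcc3 call without any control or PH 6 h replicate 3 (-0.69 to -0.53).

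After TCP the calls were Hmox2 at 3 h, and at 6 h Abcc4, Idh1 and Nfe2l1, which rose, and Btrc, Mafg, Glrx2 and Gsta4, which fell. Abcc4, which encodes an exporter of organic anions, was at 7.78, 7.34 and 8.26, against 6.27, 6.63 and 6.01 in control livers, a rise of 1.49 (SE 0.34, limma adjusted p = 0.0146). Idh1, a source of cytosolic NADPH, rose by 0.92 (SE 0.22, limma adjusted p = 0.0198), Nfe2l1, which encodes the NRF2-related factor NRF1, by 0.78 (SE 0.22, limma adjusted p = 0.0478), and Hmox2, the constitutive haem oxygenase, by 0.92 (SE 0.20, limma adjusted p = 0.0289). Mafg, another small MAF gene, had a change of -1.02 (SE 0.28, limma adjusted p = 0.0413), Glrx2, a mitochondrial glutaredoxin, of -0.97 (SE 0.25, limma adjusted p = 0.0313) and Gsta4, a glutathione transferase, of -0.74 (SE 0.19, limma adjusted p = 0.0303). Glrx2 was also below all controls in every PH liver at 6 h, averaging 7.91 there and 8.59 in control livers, though it was not called. Calls for Hmox2 (0.79 to 1.00), Mafg (-1.09 to -0.97) and Nfe2l1 (0.73 to 0.86) were lost without any 1 array, those for Idh1 (0.85 to 0.99) and Glrx2 (-1.11 to -0.74) without any but TCP 6 h replicate 1, that for Gsta4 (-0.82 to -0.64) without any but control replicate 3, and that for Abcc4 (1.25 to 1.71) without TCP 6 h replicate 3 or controls 1 or 3. With the beadchip as a block 3 of the 10 PH calls of these lists (Maff, Mafk and Slc40a1) and 0 of the 8 TCP calls were kept. In all 18 every treated array lay beyond every control array, so the sign within a beadchip could not have differed.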

How the data were processed

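Total liver RNA was amplified, labelled and hybridised to Illumina mouse beadchips, named MouseRef-8 in the labels and WG-6 in the methods, whose 45281 probes the deposited table holds. Per the file headers, the deposited table gives for each of the 21 arrays a signal intensity that the authors exported without normalisation, beside a detection p-value that the authors' software set against the negative controls. The authors' second table holds quantile normalised log2 values, with a median of 7.94 on every array and the same ranks within an array as the signal, and was used only as an alternative.

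The neqc function (limma 3.58.1, R 4.3.3) corrected background through the detection p-values, added 16, normalised by quantiles and took log2. A probe was kept if 3 or more arrays gave it a detection p below 0.05 and it had 1 gene symbol (17970 probes), and for each of 11442 genes the probe with the highest mean was used. Of 45281 probes, 34885 had 1 symbol in the platform annotation, 18 several and 10378 none. A 7-group linear model with empirical Bayes variances gave log2 fold changes, SE and Benjamini-Hochberg adjusted p over all genes. The only precision given is that of 3 mice per group, and the labels do not say that mice of a group were housed or operated apart. The fit was tested on simulated data.

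The members and gene lists were chosen with earlier results of these data known. All members are named, and from each pathway list the up to 4 called genes with the largest change against control. Likeness is Pearson r over 21 arrays, 3 genes each for Nfe2l2, Nqo1, Srxn1, Gclc and Hmox1. A summed signal is the sum of normalised linear signals. Same-numbered arrays did not deviate together (correlations -0.11 to 0.13), so numbers pair nothing. Alternatives were the offset, scaling, filters, probe choice, authors' values, blocks and leaving out arrays. A fit with a variance trend and robust prior, and a fit of single probes, were chosen after seeing the data. MicroRNA sequencing was not analysed here.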

Additional observations from a re-analysis of the deposited data

Results flagged for a closer look

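These results were picked out because PH and TCP differed in a test of the difference itself at the same time point, with PH minus TCP as the sign and 3 livers per group. They share no control arrays, and no beadchip held both groups, so none has a value within a beadchip. At 6 h Txnrd1 was higher in PH livers by 0.88 (SE 0.24, limma adjusted p = 0.02), a call lost without PH 6 h replicate 1 or TCP 6 h replicate 1 or 2 (0.68 to 1.08).

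Of the 74 other pathway genes tested, 5 were called at 3 h (3 higher and 2 lower after PH, 6.76% against 4.36% of all tested genes) and 10 at 6 h (3 higher and 7 lower, 13.5% against 10.3% of all tested genes). The 4 at 3 h and 5 at 6 h that were also called against control in PH or TCP livers follow.

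At 3 h Maff was higher after PH by 3.08 (SE 0.64, limma adjusted p = 0.00891), a call lost without PH 3 h replicate 3 (2.65). Mafk was not detected on any TCP array at 3 h, and its difference is given as a bound, at least 1.63-fold higher after PH. The call (limma adjusted p = 0.00456) is that of the difference fitted on the undetected TCP values, and the bound was not itself tested. Nfe2l1 was lower after PH by a change of -1.0 (SE 0.22, limma adjusted p = 0.014), lost without PH 3 h replicate 1 or 3 or TCP 3 h replicate 3 (-1.17 to -0.69). Hmox2 had a difference of -0.80 (SE 0.20, limma adjusted p = 0.0261), lost without PH 3 h replicate 3 or TCP 3 h replicate 1 (-0.90 to -0.68).

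At 6 h Slc40a1 differed by -1.85 (SE 0.22, limma adjusted p = 2.67e-05), Nfe2l1 by -1.09 (SE 0.22, limma adjusted p = 0.00383) and Abcc3 by -0.82 (SE 0.20, limma adjusted p = 0.0114), all kept without any 1 array. Idh1 differed by -0.72 (SE 0.22, limma adjusted p = 0.0406), a call lost without any array but PH 6 h replicate 1 (-0.84 to -0.56), and Glrx by 0.67 (SE 0.21, limma adjusted p = 0.0492), lost without PH 6 h replicate 1 or 3 or TCP 6 h replicate 1 or 3 (0.46 to 0.85). With the beadchip as a block none of these 10 differences was called.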

How the results depend on the processing

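With 3 mice per group 24 counts of called members under another setting were put down as moved and 104 were not. Leaving out 1 array moved 11 and not 67, and no called change reversed its sign. The 104 and 67 are not all unchanged counts, since a small shift, such as from 3 members to 2, was not put down as moved. They also hold counts of 0 that stayed at 0, which had no call to lose. Against the 2 members called at 3 h and the 3 called at 6 h after PH, the authors' values, whose scale is compressed at low signals, gave 0 and 0, the beadchip as a block 0 and 1, a fit of only the groups compared 1 and 1, and the methods' filter, which left 737 genes and 2 members, 1 and 1. At 3 h the count was 0 with no detection filter, 0 within beadchip 3, 0 within beadchip 4 and 1 with the variance trend and robust prior, and at 6 h it was 0 within beadchip 4. The F test after PH called 3 members, and 1 on the authors' values, 1 with the methods' filter, 0 with the beadchip as a block and 1 with only the groups compared. The difference between PH and TCP at 6 h called 1 member, and 0 with median scaling, 0 on the authors' values, 0 with the beadchip as a block, 0 with only the groups compared and 2 with the mean of a gene's probes. With only the groups compared, 3 members (Gclc, Hmox1, Txn1) were called at 6 h after TCP and 2 by the F test after TCP, where the model of all groups called 0 and 0.

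Leaving out 1 array at a time gave 0 to 3 members at 3 h and 1 to 3 at 6 h after PH, 1 to 4 in the F test after PH, 0 to 3 for PH against TCP at 3 h and 0 to 4 at 6 h. At 3 h after PH the count was 0 without any 1 of the controls, PH 3 h replicate 1 or PH 3 h replicate 3. With the replicate number as a block, which pairs nothing here, the counts were 2 at 3 h and 3 at 6 h after PH and every call was kept. Of the member changes under other settings, 28 lost a call and 5 gained one. Another 26, called in neither fit, shifted by at least the residual SD of the gene. The other 929 were called in both fits, at any size, or in neither with a smaller shift. Most of these had no call to keep, since 5 of the 60 changes against control were called. On the authors' values 4 of the 10 PH calls and 4 of the 8 TCP calls of the other pathway genes were kept. Median scaling moved the median of all genes to -0.24 at 3 h and -0.23 at 6 h after PH, from -0.05 and -0.08.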
